A study of Rattus norvegicus with 30 samples.

Results

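The subunits of the oxidative phosphorylation chain were followed across 30 left ventricles of rat, as transcripts on one-colour Agilent arrays. They were taken by gene symbol, through the transcript accession of each probe: Nduf subunits of complex I, Sdha to Sdhd of complex II, Uqcr genes and Cyc1 of complex III, Cox4 to Cox8 genes of complex IV and Atp5 genes of complex V, without assembly factors. Of 109 protein-coding rat symbols in RefSeq that match these names, 74 had a matched probe and 73 were well above background often enough to be tested, out of 18332 tested genes (of which 11303 carry a symbol, the rest being known by accession or probe only). These 73 comprise 31 genes of complex I, 4 of complex II, 8 of complex III, 15 of complex IV and 15 of complex V, and each of the 73 was above background on all 30 arrays. Cox8c, a complex IV gene known from testis, was above background on 2 arrays and was not tested. No probe was matched for 35 symbols, among them Cyc1 (cytochrome c1), Cox7a1 (the muscle isoform of its subunit), Ndufa4l2, Ndufs6, Ndufa8, Ndufa13 and Atp5mc3, and these were not analysed here.

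The animals were male Sprague Dawley rats of 16 to 18 weeks, on chow or on a sucrose-rich diet lasting 8 to 10 weeks, and the labels call the sucrose-fed animals insulin resistant. All hearts went into ice-cold buffer at excision. In each diet, 5 were dissected at once (non-perfused), 5 worked ex vivo for 60 min with 25 mmol/L glucose, and 5 did so with 25 mmol/L mannitol as osmotic control. Every perfusion buffer also held hydroxybutyrate (10 mmol/L), acetoacetate (1), propionate (2) and calcium (2.5), so hearts without glucose still had other fuels. Filling pressure was 15 and afterload 100 cm H2O. Perfusion, its buffer, the workload and the added hour come together in every perfused heart and cannot be told apart. The labels give 5 biological replicates for each of 6 groups, each hybridised to its own array. Between 48.8% and 75.4% of probes were well above background on an array, and no spot was saturated. All 10 cardiomyocyte markers (such as Myh6 and Tnnt2) were well above background and tested.

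In the inner mitochondrial membrane, complexes I and II pass electrons from NADH and succinate to coenzyme Q, complex III passes them to cytochrome c and complex IV to oxygen. Complexes I, III and IV pump protons, and complex V, the ATP synthase, makes ATP from the return flow. Heart muscle holds these complexes in great abundance, and most of their subunits are encoded in the nucleus and imported. Levels below are log2 of the processed signal over the 75th percentile of the same array, so they can be compared between arrays for a gene but not between genes. A change is the difference between mean log2 levels of groups, given with its standard error (SE) from limma. A gene is said to rise or fall where its p-value, adjusted by Benjamini-Hochberg over all 18332 genes, was under 0.05.

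One subunit, Uqcrq, rose in every perfused group, and the other 72 changed by at most 0.42 log2 units in any comparison. Uqcrq encodes a small subunit of complex III that is bound next to cytochrome b. In chow hearts it stood at 2.02, 1.97, 2.42, 2.13 and 2.07 without perfusion, at 3.83, 3.75, 3.42, 4.2 and 3.3 after mannitol, and at 3.86, 3.56, 4.08, 3.85 and 3.65 after glucose. In sucrose-fed hearts it stood at 2.53, 2.22, 1.78, 1.6 and 2.01 without perfusion, at 3.23, 3.41, 3.54, 3.21 and 3.51 after mannitol, and at 4.1, 3.75, 3.49, 3.76 and 2.82 after glucose. All 20 perfused hearts were above all 10 non-perfused hearts, a pattern that 2.03% of all genes showed, the nearest being a sucrose-fed glucose heart at 2.82 and a sucrose-fed non-perfused heart at 2.53.

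The rise of Uqcrq with mannitol was 1.58 (SE 0.19, 2.98-fold, adjusted p = 1.27e-06) in chow hearts and 1.36 (SE 0.19, 2.56-fold, adjusted p = 1.24e-05) in sucrose-fed hearts. With glucose it was 1.68 (SE 0.19, 3.19-fold, adjusted p = 3.44e-07) in chow hearts and 1.56 (SE 0.19, 2.95-fold, adjusted p = 1.41e-06) in sucrose-fed hearts. Over the mean of the 4 perfused groups against the mean of the 2 non-perfused groups, here called the averaged comparison, it was 1.54 (SE 0.12, 2.91-fold, adjusted p = 5.29e-11). These comparisons share non-perfused hearts within a diet. In the averaged comparison 129 of the 18332 genes rose by more. Uqcrq did not pass the test between glucose and mannitol (0.10 in chow and 0.20 in sucrose-fed hearts) or between diets (-0.10 without perfusion, -0.32 with mannitol, -0.21 with glucose).

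A single probe reports Uqcrq. Its values ran from 1.6 to 4.2, while 62 of the 73 subunits had a mean level of at least 5. Levels cannot be compared between genes, and which transcripts the probe reports was not tested. In RefSeq the gene overlaps Gdf9, an oocyte growth factor gene, whose own probe was above background on 5 of 30 arrays and was not tested, and whether its transcripts reach the Uqcrq probe was not tested. The increase was present on each of the 4 slides that carry all 6 groups, at 1.77, 1.57, 1.33 and 1.70 in the averaged comparison. Chow non-perfused and chow mannitol arrays all lay in row 1 of their slides, so the row was the same on both sides of that comparison. All glucose arrays of both diets lay in row 2 and all non-perfused arrays in row 1, so row and glucose perfusion cannot be told apart. Transcripts of blood cells fell in the perfused hearts: 3 of the 4 red cell markers tested fell, with a summed level of 8.74 to 9.29 in chow and 8.75 to 9.43 in sucrose-fed non-perfused hearts, against 2.97 to 6.27 and 2.81 to 4.35 in chow and 2.48 to 4.17 and 2.7 to 3.44 in sucrose-fed hearts after mannitol and glucose. In the averaged comparison 5 of 7 macrophage markers rose (4 with quantile scaling, explained below), but 0 with either buffer in chow hearts, and 10.1% of all genes rose. Their summed levels were 3.25 to 3.93, 3.53 to 3.79 and 3.47 to 3.86 in chow (non-perfused, mannitol, glucose) and 3.19 to 3.84, 3.58 to 4.02 and 3.6 to 4.06 in sucrose-fed hearts. Of 3 neutrophil markers 2 fell (12.2% of all genes fell), with summed levels of -2.5 to -1.53, -4.77 to -4.07 and -4.39 to -3.57 in chow and -2.97 to -1.25, -4.99 to -3.46 and -5.24 to -2.98 in sucrose-fed hearts. Of 6 fibroblast markers 2 rose, with summed levels of 6.41 to 6.83, 6.43 to 6.68 and 6.5 to 6.81 in chow and 6.4 to 6.84, 6.59 to 6.84 and 6.54 to 6.94 in sucrose-fed hearts. In the same comparison 1 of 6 endothelial and 1 of 4 smooth muscle markers rose. The part of any of these in the change of Uqcrq was not tested. In whole ventricle, fewer cells of a type and less RNA per cell cannot be told apart.

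**Figure D1:**
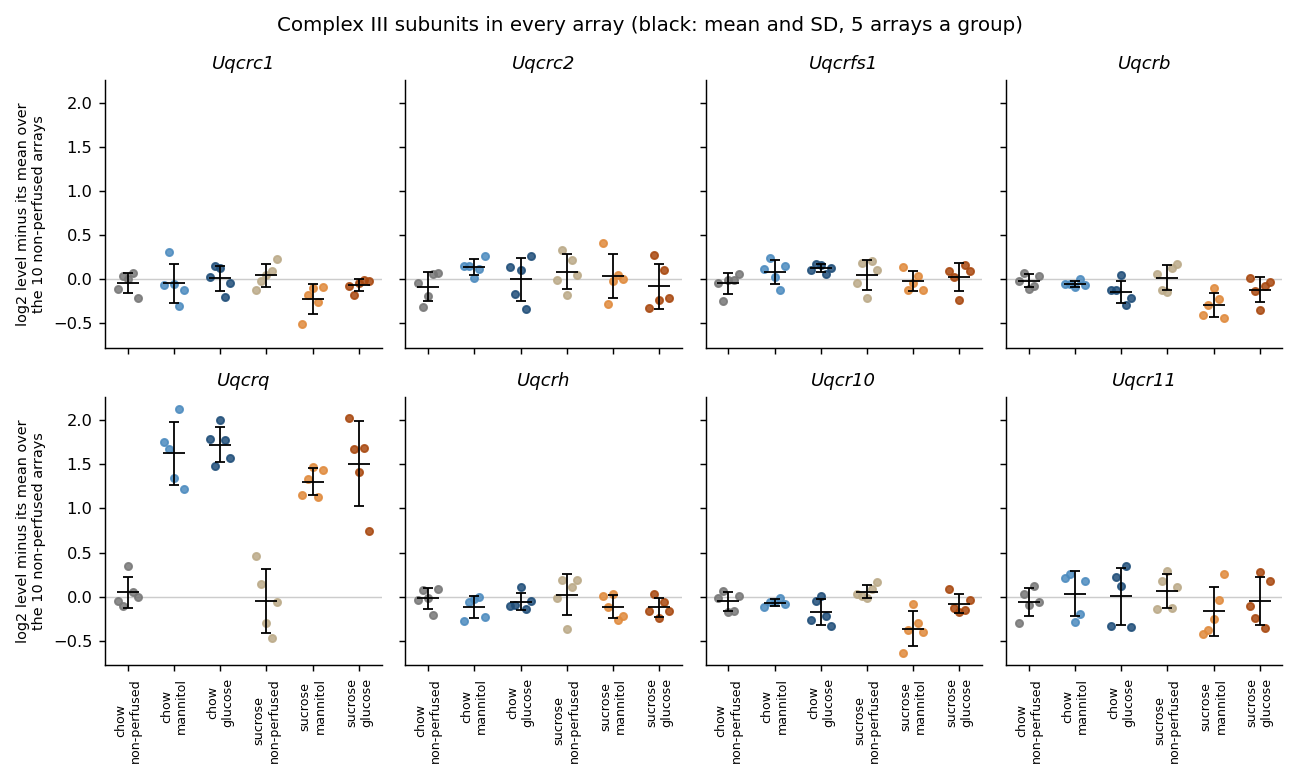
Level of the 8 tested complex III subunits in each of 30 arrays, as the log2 difference from that gene's mean over the 10 non-perfused arrays, by group; points are arrays, black marks the mean and SD of 5 arrays. Uqcrq is higher in all 20 perfused arrays than in all 10 non-perfused arrays, while the 7 others lie around 0. Of these, Uqcr10 in sucrose-fed hearts with mannitol and Uqcrfs1 in chow hearts with glucose do not overlap their non-perfused hearts, the latter at 6.58 to 6.69 against 6.27 to 6.58.

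The bases before the start of Uqcrq are shown beside those of 3 partners in complex III that did not rise, since the genes of one complex differed here. They are the 250 bases upstream of the RefSeq start in GRCr8, 5′ to 3′ on the gene's own strand, chosen after the values were seen. Capitals mark the letters CCGGAAG or, on the other strand, CTTCCGG, the core that ETS factors such as GABP (nuclear respiratory factor 2) can bind. Uqcrq lies on chromosome 10, chr10:38089979-38090228, minus strand. Uqcrc2, a core protein, is at chr1:184598990-184599239, plus strand. Uqcrh, the hinge protein, is at chr5:134790883-134791132, minus strand. Uqcr10, a small subunit, is at chr14:83791915-83792164, minus strand.
Uqcrq: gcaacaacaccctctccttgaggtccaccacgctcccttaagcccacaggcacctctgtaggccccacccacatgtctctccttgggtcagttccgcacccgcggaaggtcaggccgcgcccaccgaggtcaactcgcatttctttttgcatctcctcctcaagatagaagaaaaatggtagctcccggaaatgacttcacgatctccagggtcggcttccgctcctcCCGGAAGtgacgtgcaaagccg
Uqcrc2: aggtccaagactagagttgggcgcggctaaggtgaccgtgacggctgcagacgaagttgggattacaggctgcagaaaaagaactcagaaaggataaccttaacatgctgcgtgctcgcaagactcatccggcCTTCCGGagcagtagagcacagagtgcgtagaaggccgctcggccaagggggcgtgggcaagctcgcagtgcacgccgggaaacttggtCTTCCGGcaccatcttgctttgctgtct
Uqcrh: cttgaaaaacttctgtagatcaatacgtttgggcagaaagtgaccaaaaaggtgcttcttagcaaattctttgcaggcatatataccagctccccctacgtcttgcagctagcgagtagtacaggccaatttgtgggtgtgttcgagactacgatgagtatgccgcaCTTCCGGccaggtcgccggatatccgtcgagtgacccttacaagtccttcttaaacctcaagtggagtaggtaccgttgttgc
Uqcr10: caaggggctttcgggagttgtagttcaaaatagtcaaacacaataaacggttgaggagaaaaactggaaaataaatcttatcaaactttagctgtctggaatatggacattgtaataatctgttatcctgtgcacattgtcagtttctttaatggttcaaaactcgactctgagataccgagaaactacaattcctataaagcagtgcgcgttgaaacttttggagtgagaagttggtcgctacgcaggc

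The Uqcrq window held the core once, 22 to 16 bases before the start, Uqcrc2 held it at 117 to 111 and at 28 to 22 bases, Uqcrh at 83 to 77 bases, and Uqcr10 did not hold these letters. Among the 64 of 73 subunits with a RefSeq window, 19 (29.7%) held the core on either strand, against 7.27% of 33469 windows and 14.1% of the windows of 9289 tested genes. The palindrome of NRF1 (nuclear respiratory factor), searched with 1 free base in its middle, was in 10 of the 64 (15.6%), against 3.75% of all windows and 8.26% of those of tested genes. The site of oestrogen-related receptors, AAGGTCA or TGACCTT, was in 6 (9.38%, against 3.99% and 2.71%), Uqcrq among them. The letters AAGATGGCG of YY1 were in 1, the cAMP response element TGACGTCA in 3 and the AP-1 site TGANTCA in 3, none of them Uqcrq. These are 1.56%, 4.69% and 4.69%, against 0.693%, 1.59% and 6.34% of all windows and 1.17%, 2.7% and 4.86% of those of tested genes. The SP1 box GGGCGG was in 22 (34.4%, against 30.5% of all windows and 54.5% of those of tested genes) and CCAAT in 20 (31.2%, against 34.0% and 35.8%), and Uqcrq held neither. All were searched on both strands, and the letters of different motifs may overlap. Of the 64, 19 fell with mannitol after sucrose, as described below: 5 of these 19 and 14 of the other 45 held the ETS core, and 0 and 10 the NRF1 palindrome. These are matches of letters and say nothing of binding.

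The other 7 complex III genes did not rise, and all 7 are given here because Uqcrq did, a choice made after the values were seen. In the averaged comparison the Rieske iron-sulphur protein Uqcrfs1 was at 0.05 (SE 0.05), the core protein Uqcrc2 at 0.02 (SE 0.08), Uqcrc1 at -0.08, Uqcr11 at -0.05 and Uqcrh at -0.11, and none passed the test. Uqcr10 and Uqcrb (a subunit that binds near the quinone site) fell slightly, by 0.17 (SE 0.05, adjusted p = 0.0153) and 0.15 (SE 0.05, adjusted p = 0.0252). Under quantile scaling, which gives every array the same distribution of values, those were -0.06 and -0.07 and did not pass, while Uqcrq was at 1.56. By its other, less bright probe Uqcrb was at -0.13 (SE 0.06), and at -0.14 with quantile scaling, so its probes differ in how far the scaling matters.

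Mannitol perfusion of sucrose-fed hearts was the comparison in which the most subunits passed the test, 1 upward and 21 downward of 73. Over all genes 5.54% rose and 5.36% fell. The 21 were 9 of complex I, 1 of complex II, 2 of complex III, 5 of complex IV and 4 of complex V, and the median change of the 73 was -0.20, against -0.04 over all genes. By complex the median ran from -0.17 for complexes I and II to -0.21 for complex V. The largest was a fall of 0.42. In 11 of the 73 all mannitol hearts were below all non-perfused hearts, a pattern of 4.7% of all genes.

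These falls depend on how arrays are scaled to each other. With quantile scaling, with normexp background correction and quantile scaling, and with the authors' deposited values, 0 of the 73 fell and Uqcrq was the 1 that passed. With quantile scaling 4.16% of all genes fell and 5.43% rose, by adjusted p. At the looser unadjusted p under 0.05, 4 of the 73 were lower, and the share of all genes at that threshold is not given here. The median of the 73 was then 0.00, 0.00 and 0.03. For normexp with quantile scaling and for the deposited values, the share of all genes that fell is not given here. Falls made up a smaller share of all called genes with the deposited values than with quantile scaling, as given further below. Among 847 genes outside the chain with a mean level of at least 5, where 62 of the 73 subunits also lie, the median was -0.16 and 12.6% fell, against -0.20 and 28.8% of the 73, a difference that was not tested, and with quantile scaling the median was 0.00 and 1.18% fell. Cardiomyocyte markers had a median of -0.25 with 1 of 10 falling, and 0.03 with quantile scaling, and their summed level was 11.7 to 12.27 after mannitol and 12.25 to 12.47 without perfusion (12.09 to 12.31 after glucose, and 12.06 to 12.58, 12.13 to 12.48 and 11.93 to 12.48 in chow hearts without perfusion, with mannitol and with glucose). The part of these in the falls was not tested.

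The count of subunits that passed also hung on single arrays. It was 9 of 73 without sucrose-fed non-perfused replicate 5 or sucrose-fed mannitol replicate 2, and 13 without sucrose-fed non-perfused replicate 4 or sucrose-fed mannitol replicate 1, the latter alone on its slide. Without the 4 arrays whose negative controls were most spread (chow non-perfused replicate 2, sucrose-fed non-perfused replicates 1 and 5, sucrose-fed mannitol replicate 5) it was 9, and without these and the lone array it was 5. For these fits the share of all genes that passed is not given here. All non-perfused arrays lay in row 1 of the slides, and 4 of the 5 sucrose-fed mannitol arrays in row 2, so row and mannitol perfusion can hardly be told apart in these hearts.

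**Figure D2:**
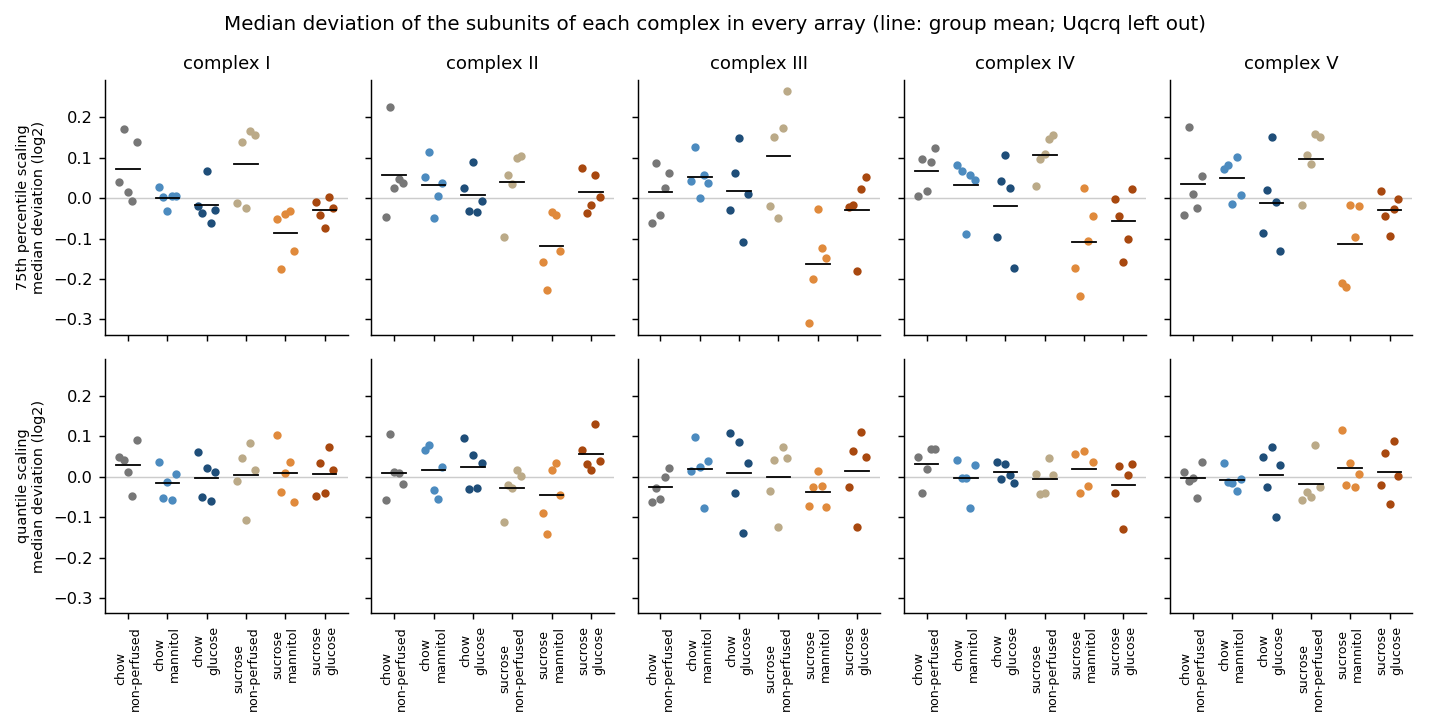
Median over the subunits of a complex, in each array, of the log2 level minus the gene's mean over 30 arrays, by group, with Uqcrq left out; the upper panels use 75th percentile scaling and the lower ones quantile scaling, points are arrays and lines group means. Sucrose-fed mannitol arrays are lowest by group mean in all 5 complexes above (-0.09 to -0.16), and below the 6 groups lie between -0.04 and 0.06.

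Complex I accepts electrons from NADH, through a flavin and a chain of iron-sulphur clusters in its peripheral arm. The accessory subunit Ndufb2 of its membrane arm had the smallest adjusted p but one among its 9 falls after sucrose and mannitol. It was at 6.48, 6.46, 6.51, 6.49 and 6.66 without perfusion and at 6.09, 6.16, 6.31, 6.05 and 6.22 with mannitol, without overlap (-0.35, SE 0.08, adjusted p = 0.00417). Under quantile scaling the change was -0.20 (adjusted p = 0.157). Ndufb3, also of the membrane arm, fell by 0.30 (SE 0.06, adjusted p = 0.00234), Ndufc2 by 0.28 (SE 0.07, adjusted p = 0.0108) and Ndufs3, a core subunit of the peripheral arm, by 0.20 (SE 0.05, adjusted p = 0.0169). With quantile scaling these 3 were at -0.13, -0.12 and -0.06.

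Of the core subunits of complex I that carry cofactors, Ndufv1, which binds the flavin and NADH, fell in the same comparison by 0.23 (SE 0.07, adjusted p = 0.0386), and with the authors' deposited values it was at 0.06. The core subunits Ndufs1, Ndufs7, Ndufs8 and Ndufv2 did not pass, at -0.07, -0.05, -0.02 and -0.16. Ndufb4 was called from its brighter probe (-0.34, SE 0.09), but its other probe was at -0.01 (SE 0.07), so the 2 probes disagree. By the brighter probe Ndufb4 was at 7.29, 7.22, 7.43, 7.39 and 7.45 without perfusion and at 6.92, 7.01, 7.25, 7.11 and 6.82 with mannitol, with an overlap. 

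Ndufa4, named for complex I and now counted with complex IV, was at 7.07, 7.08, 6.98, 6.93 and 7.18 in chow hearts without perfusion, at 7.12, 7.03, 7.1, 7.11 and 7.18 with mannitol and at 7.08, 7.11, 7.23, 6.83 and 7 with glucose. For Ndufa4 the sucrose-fed hearts, in the same order, were at 6.49, 7.27, 7, 7.24 and 6.93, at 6.91, 6.93, 7.12, 7.2 and 7.04 and at 6.93, 7.05, 7.03, 7.12 and 6.67. The groups overlapped, 1 sucrose-fed non-perfused heart at 6.49 was the lowest of all, and the change of 0.02 (SE 0.07) in the averaged comparison did not pass.

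Complex II, succinate dehydrogenase, links the citric acid cycle to the chain. Its membrane anchor Sdhd was at 6.31, 6.56, 6.45, 6.51 and 6.52 without perfusion and at 6.23, 6.12, 6.28, 6.38 and 6.27 with mannitol in sucrose-fed hearts, with 1 non-perfused heart inside the mannitol range (-0.21, SE 0.06, adjusted p = 0.019, and -0.06 with quantile scaling). The flavoprotein Sdha was at 0.01, the iron-sulphur protein Sdhb at -0.16 and the anchor Sdhc at -0.19, and none of them passed. Sdha is the subunit with the highest averaged change after Uqcrq, 0.10 (SE 0.05, adjusted p = 0.152). It passed with quantile scaling (0.18, adjusted p = 0.0144).

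In complex III the fall of Uqcr10 was the largest of all 73. Without perfusion sucrose-fed hearts were at 8.48, 8.46, 8.44, 8.54 and 8.62, and with mannitol at 7.81, 8.07, 8.37, 8.15 and 8.05, without overlap (-0.42, SE 0.08, adjusted p = 0.00104). With quantile scaling it was at -0.14 (adjusted p = 0.284). Chow mannitol hearts, at 8.33, 8.39, 8.39, 8.44 and 8.37, lay within the range of chow non-perfused hearts, 8.28 to 8.52.

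Complex IV, cytochrome c oxidase, carries its catalytic centres on mitochondrially encoded subunits, and the nuclear subunits counted here surround them, several in tissue-specific pairs. Cox7a2l, which ties complexes III and IV into supercomplexes, was at 5.03, 4.95, 5.15, 5.08 and 5.29 in sucrose-fed non-perfused hearts and at 4.91, 4.78, 4.93, 4.51 and 4.43 with mannitol. Its fall was 0.39 (SE 0.11, adjusted p = 0.0167), without overlap, and with quantile scaling it was -0.28 (adjusted p = 0.103). Cox7a2 was at 6.98, 6.94, 6.89, 6.96 and 7.03 without perfusion and at 6.57, 6.59, 6.86, 6.78 and 6.7 with mannitol, without overlap, and fell by 0.26 (SE 0.08, and -0.09 with quantile scaling). By its other, less bright probe the change of Cox7a2 was -0.07 (SE 0.11). Cox5b, which binds zinc, fell by 0.31 (SE 0.09), Cox7c by 0.32 (SE 0.10) and Cox4i1 by 0.22 (SE 0.07). Cox4i1 was on the other side of 0 with quantile scaling, at 0.09.

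Of the paired isoforms of complex IV 0 of 9 tested rose in any perfusion comparison and 3 fell in the averaged one (Cox6b1, Cox7a2 and Cox8a), where 10.1% of all genes rose and 12.2% fell. After mannitol in sucrose-fed hearts Cox4i1 and Cox7a2 also passed downward. Cox4i1, the widespread form of subunit 4, was at 8.1, 8.48, 8.18, 8.09 and 8.18 in chow hearts without perfusion, at 8.29, 8.24, 8.17, 8.33 and 8.18 with mannitol and at 8.1, 8.27, 8.23, 8.14 and 8.07 with glucose. Cox4i1 after sucrose was at 8.12, 8.25, 8.28, 8.31 and 8.33 without perfusion, at 7.96, 7.89, 8.09, 8.12 and 8.13 with mannitol and at 8.13, 8.09, 8.22, 8.13 and 8.2 with glucose. Its groups overlapped, and it did not pass in the averaged comparison (-0.08, SE 0.04). Cox4i2, known from lung and linked to low oxygen, was at 2.54, 2.99, 3.11, 2.92 and 2.65 in chow hearts without perfusion, at 3.17, 2.79, 2.51, 2.98 and 3.04 with mannitol and at 2.66, 3, 3.08, 2.87 and 2.55 with glucose. In sucrose-fed hearts Cox4i2 was at 2.87, 2.99, 2.74, 2.78 and 3.03, at 2.67, 2.48, 2.93, 2.89 and 2.86 and at 2.85, 3.06, 2.64, 2.51 and 3.01, in the same order. These values overlapped in every group, at -0.03 (SE 0.08) in the averaged comparison, which did not pass.

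Cox6a1, the widespread form of subunit 6a, was at 7.1, 7.16, 7.18, 7.32 and 7.18 in chow hearts without perfusion, at 7.33, 7.28, 7.04, 6.99 and 7.3 with mannitol and at 7.19, 7.16, 7.27, 7.31 and 6.99 with glucose. For Cox6a1 the sucrose-fed hearts, in the same order, were at 7.05, 7.17, 7.38, 7.41 and 7.31, at 6.92, 6.85, 6.99, 6.92 and 7.6 and at 7.32, 7.12, 7.01, 6.98 and 7.09. One sucrose-fed mannitol heart, at 7.6, was the highest of all 30, and the averaged change of -0.1 (SE 0.07) did not pass. Cox6a2, the form of heart and skeletal muscle, was at 8.87, 9.54, 9.06, 9.03 and 8.94 in chow hearts without perfusion, at 9.15, 9.08, 8.92, 9.32 and 8.92 with mannitol and at 8.76, 9.17, 9.12, 9.2 and 8.58 with glucose. Cox6a2 after sucrose was at 9.14, 9.17, 9.23, 8.97 and 9.16 without perfusion, at 8.5, 8.68, 8.97, 8.95 and 8.94 with mannitol and at 9.1, 8.83, 9.22, 8.73 and 8.95 with glucose. The sucrose-fed mannitol hearts all lay at or under the lowest sucrose-fed non-perfused heart, but that change (-0.33, SE 0.13, adjusted p = 0.123) did not pass, nor did the averaged one (-0.16, SE 0.08).

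Cox6b1, the widespread form of subunit 6b, was at 6.07, 6, 6, 6.1 and 6.12 in chow hearts without perfusion, at 6.01, 5.93, 6.03, 5.95 and 6.04 with mannitol and at 5.98, 5.99, 6.14, 6.02 and 5.92 with glucose. In sucrose-fed hearts Cox6b1 was at 6.05, 6.12, 5.9, 6.17 and 6.13, at 6.02, 5.94, 6, 5.89 and 5.86 and at 5.8, 5.96, 5.72, 5.98 and 5.97, in the same order. It fell by 0.11 in the averaged comparison (SE 0.04, adjusted p = 0.0416), with overlap. With quantile scaling it was at -0.03 and with the authors' deposited values at 0.01, passing with neither. By its other, less bright probes Cox6b1 was at -0.04 (SE 0.06) and -0.11 (SE 0.04), and with quantile scaling at 0.03 and -0.11. Cox6b2, known from testis, was at 4.16, 4.3, 5.02, 4.89 and 4.7 in chow hearts without perfusion, at 4.17, 4.51, 4.17, 5.24 and 4.3 with mannitol and at 3.65, 4.67, 4.69, 4.82 and 3.58 with glucose. For Cox6b2 the sucrose-fed hearts, in the same order, were at 3.89, 5.09, 4.86, 3.77 and 4.86, at 4.27, 4.45, 4.82, 4.01 and 4.65 and at 4.56, 4.08, 4, 3.45 and 4.26. Its hearts scattered most of all subunits, and the averaged change of -0.24 (SE 0.18) did not pass.

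Cox8a, the widespread form of subunit 8, was at 6.03, 6.26, 6.18, 6.15 and 6.09 in chow hearts without perfusion, at 6.11, 6.09, 5.88, 5.85 and 5.93 with mannitol and at 5.93, 6.02, 6.04, 6.02 and 5.91 with glucose. Cox8a after sucrose was at 6.02, 6.18, 6.13, 6.17 and 6.16 without perfusion, at 6.14, 5.74, 5.84, 5.85 and 6.08 with mannitol and at 6.04, 5.97, 6.12, 5.75 and 6.02 with glucose. It fell by 0.17 in the averaged comparison (SE 0.05, adjusted p = 0.00971), with overlap, and was at -0.09 with quantile scaling, where it did not pass. Cox8b, the form of heart and skeletal muscle, was at 7.95, 8.06, 7.99, 8.12 and 8.1 in chow hearts without perfusion, at 8.27, 8.11, 7.94, 8.11 and 8.16 with mannitol and at 7.85, 8.13, 8.16, 8.19 and 7.8 with glucose. In sucrose-fed hearts Cox8b was at 8.04, 8.14, 8.12, 8.1 and 7.95, at 7.9, 7.79, 8, 8.04 and 7.98 and at 7.95, 8.06, 7.95, 7.91 and 7.96, in the same order. Its groups overlapped and it did not pass (-0.04, SE 0.05). Cox7a2 fell by 0.18 (SE 0.05, adjusted p = 0.00495, and -0.09 with quantile scaling, where it did not pass), and its muscle partner Cox7a1 was not analysed here. Whether the members of a pair differ in their change was not tested.

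**Figure D3:**
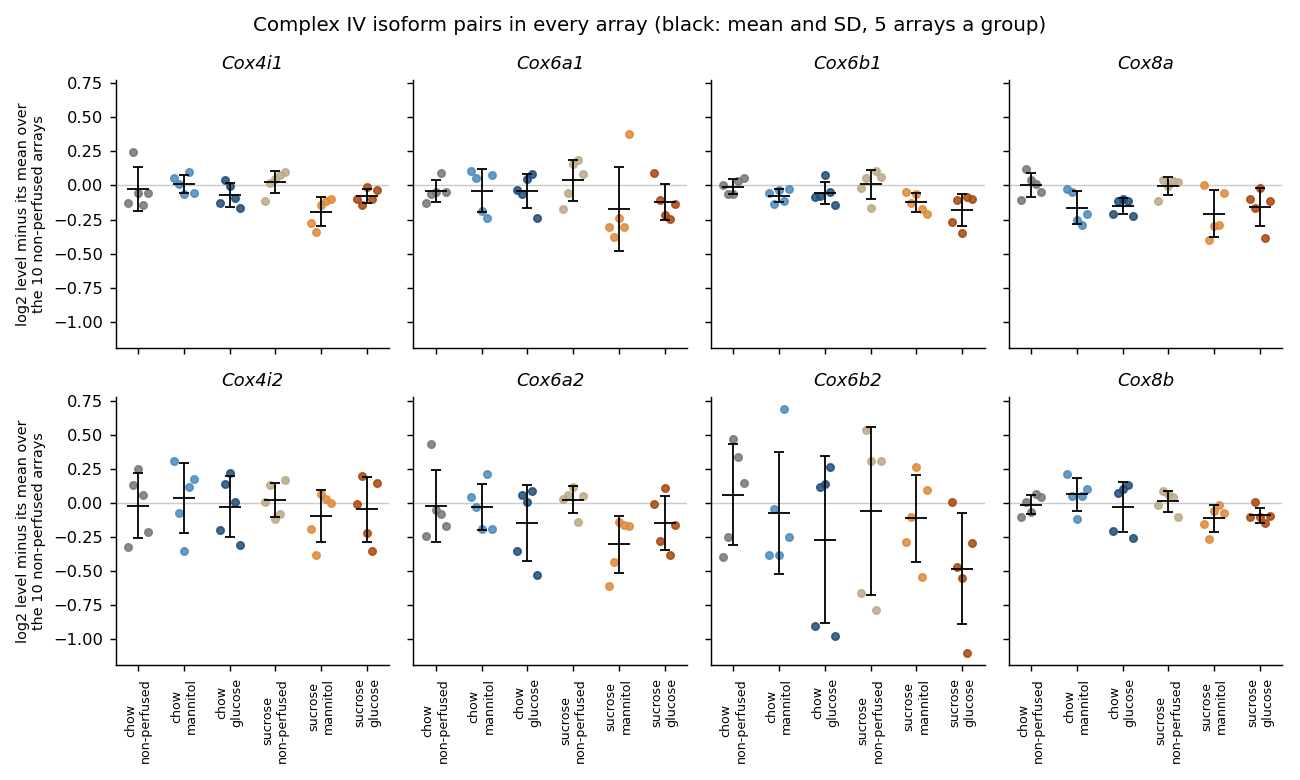
Level of 4 pairs of complex IV isoforms in each of 30 arrays, as the log2 difference from that gene's mean over the 10 non-perfused arrays, by group; points are arrays, black marks the mean and SD of 5 arrays. The groups overlap in nearly every panel, Cox6b2 has the widest scatter (SD 0.32 to 0.62), and single arrays stand apart for Cox4i1, Cox6a1 and Cox6a2.

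Complex V was represented by the catalytic head, the stalks and the rotor. The head subunits Atp5f1a and Atp5f1b were at -0.29 (SE 0.12, adjusted p = 0.13) and -0.11 (SE 0.09) after sucrose and mannitol and did not pass, and the stalk subunit Atp5f1c was at -0.05. Atp5f1e, the small epsilon subunit of the central stalk, was at 8.06, 7.99, 7.93, 8.21 and 8.16 without perfusion and 7.65, 7.7, 7.95, 7.74 and 7.81 with mannitol, with an overlap at 7.93 to 7.95. It fell by 0.30 (SE 0.08, adjusted p = 0.0083), but was at -0.03 with quantile scaling and at 0.03 with the authors' deposited values. Atp5mc1 (a ring subunit of the rotor) fell by 0.27 (SE 0.08) and Atp5pb (of the peripheral stalk) by 0.20 (SE 0.06), and with quantile scaling both lay above 0, at 0.05 and 0.08. Atp5f1d, also of the central stalk, was at 5.57, 5.91, 5.8, 5.67 and 5.78 without perfusion and at 5.58, 5.33, 5.55, 5.43 and 5.64 with mannitol, with overlap, and did not pass here (-0.24, SE 0.09). Atp5mk fell by 0.25 (SE 0.08), and was at -0.08 with quantile scaling.

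In the averaged comparison 1 subunit rose and 16 fell, where 10.1% of all genes rose and 12.2% fell. The 16 were 7 of complex I, 1 of complex II, 2 of complex III, 4 of complex IV and 2 of complex V. The median of the 73 was -0.10, against -0.04 over all genes and -0.09 over the 847 other genes with bright probes, of which 15.8% fell. No subunit that fell had all perfused hearts below all non-perfused hearts, a pattern of 0.638% of all genes. The largest falls were of Ndufb2 and Ndufb4, both -0.23 (adjusted p = 0.00123 and 0.00286), Cox7a2l, -0.20 (adjusted p = 0.0232), and Ndufc2, -0.20 (adjusted p = 0.00108). By its other probe Ndufb4 was at 0.00 (SE 0.05). Ndufs3 fell by 0.17 (SE 0.03) with the smallest adjusted p of the 16, 0.000425, and Atp5f1d of the central stalk fell by 0.17 (SE 0.06, adjusted p = 0.0344). With quantile scaling 2 of the 73 rose (Uqcrq and Sdha, where 9.84% of all genes rose) and 0 fell (11.1%). At the looser unadjusted p under 0.05, 6 were lower, and the share of all genes at that threshold is not given here. Without the 4 arrays of spread negative controls 7 fell, and without these and the lone array 8, with no share of all genes given for these fits.

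**Figure D4:**
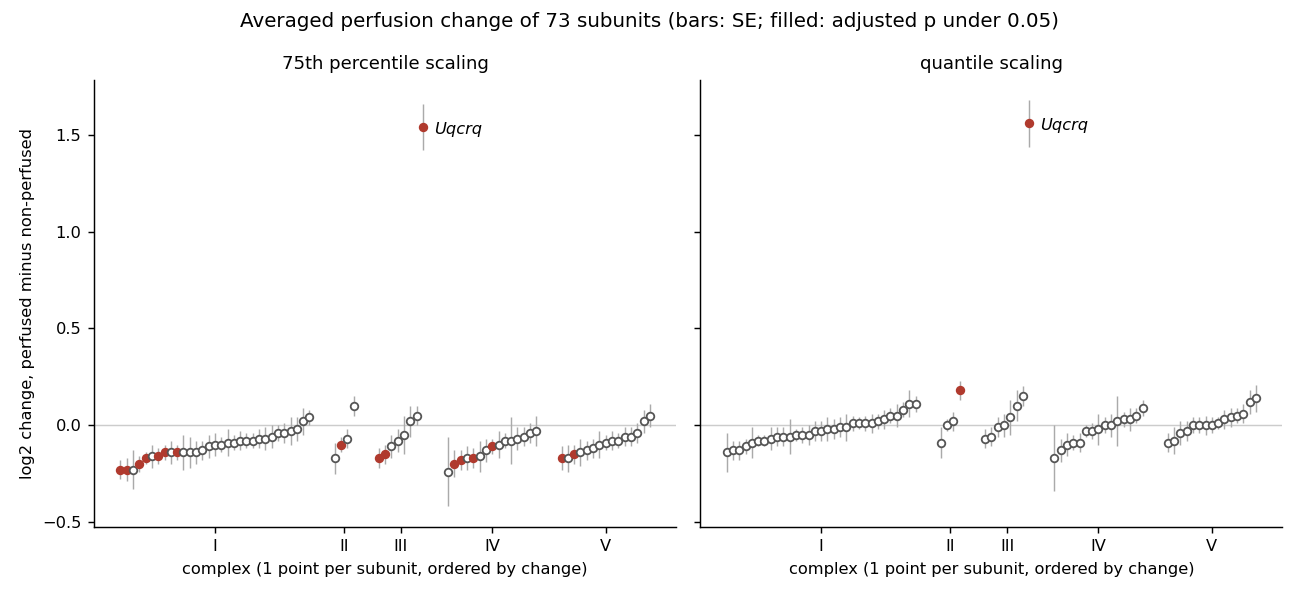
Log2 change of each of 73 subunits in the averaged comparison (mean of 4 perfused groups minus mean of 2 non-perfused groups), by complex and ordered by change; the left panel uses 75th percentile scaling and the right panel quantile scaling, bars are SE and filled points have an adjusted p under 0.05. Uqcrq stands at 1.54 and 1.56; 16 other subunits are filled below 0 on the left, and Sdha alone besides Uqcrq on the right.

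The other perfusion comparisons gave few calls besides Uqcrq. In chow hearts with mannitol, Ndufc2 fell by 0.24 (SE 0.07, adjusted p = 0.0381) as the 1 of 73 that fell, against 3.64% of all genes falling and 4.83% rising. Its values were 6.47, 6.52, 6.34, 6.37 and 6.53 without perfusion and 6.28, 6.24, 6.23, 5.96 and 6.35 with mannitol, overlapping by 1 heart. The call was lost without chow non-perfused replicate 2 or 5 or chow mannitol replicate 2 or 4. With slide as a fixed block 3 of the 73 fell, Ndufc2 among them (-0.25), and the share of all genes in that fit is not given here. The median of the 73 was -0.01, as over all genes.

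In chow hearts with glucose the 1 that fell was Atp5pf, coupling factor 6 of the peripheral stalk, where 4.1% of all genes fell and 5.43% rose. It was at 6.72, 6.91, 6.55, 6.74 and 6.74 without perfusion and at 6.54, 6.18, 6.33, 6.29 and 6.53 with glucose, without overlap, like 4.25% of all genes (-0.36, SE 0.11, adjusted p = 0.0296, and -0.31 and 0.0983 with quantile scaling). The call was lost without chow non-perfused replicate 1, 2 or 5. With slide as a fixed block 3 of the 73 fell, Atp5pf among them (-0.36), again without the share of all genes in that fit. In sucrose-fed hearts Atp5pf was at -0.04 with mannitol and -0.06 with glucose.

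In sucrose-fed hearts with glucose, 2 of the 73 fell, where 3.17% of all genes fell and 5.54% rose. Ndufa1, a membrane arm subunit that helps assemble complex I, was at 6.63, 6.68, 6.67, 6.7 and 6.56 without perfusion and at 6.23, 6.47, 6.24, 6.54 and 6.04 with glucose, without overlap, like 3.38% of all genes (-0.34, SE 0.10, adjusted p = 0.027, and -0.22 and 0.241 with quantile scaling). Ndufs3 fell by 0.18 (SE 0.05, adjusted p = 0.039). Neither was called without sucrose-fed non-perfused replicate 2 or 4 or sucrose-fed glucose replicate 1 or 3. The median of the 73 was -0.12, against -0.03 over all genes and 0.00 with quantile scaling.

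No subunit passed the test for buffer glucose or for diet. Between glucose and mannitol 0 of 73 passed in chow hearts, where 0 of all genes passed (0%), and 2 had an unadjusted p under 0.05, both lower with glucose, as did 2.38% of all genes. In sucrose-fed hearts 0 of 73 passed, where 1 gene in all did (0.00545%), and 7 had an unadjusted p under 0.05, all higher with glucose, as did 3.2% of all genes. The smallest p there was that of Uqcr10, at 8.54, 8.32, 8.28, 8.3 and 8.41 with glucose against 7.81 to 8.37 with mannitol (0.28, SE 0.08, adjusted p = 0.99). In chow hearts it was that of Cox7c (-0.27, SE 0.10, adjusted p = 1).

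Between diets 0 of 73 passed without perfusion (0% of all genes), with glucose (0%) or with mannitol (0.00545%, 1 gene). Without perfusion 1 had an unadjusted p under 0.05 (Atp5mk, 0.22, SE 0.08, adjusted p = 1), as did 1.39% of all genes upward, and with glucose 1 (Ndufa1, -0.23, SE 0.10, adjusted p = 1), as did 1.84% downward. With mannitol 19 did, all lower after sucrose, against 5.24% of all genes, and in 6 of the 73 all sucrose-fed hearts were below all chow hearts, against 1.29% of all genes. Of the 847 other genes with bright probes, 153 were lower with an unadjusted p under 0.05, in 66 all sucrose-fed hearts were below all chow hearts, and the median was -0.10. The smallest p was that of Cox7c (-0.38, SE 0.10, adjusted p = 0.415). The median of the 73 in that comparison was -0.12, and 0.00 with quantile scaling, where 1 had an unadjusted p under 0.05 downward. The share of all genes at that threshold with quantile scaling is not given here. For the difference between diets in the perfusion change, averaged over both buffers, 0 of 73 passed (0% of all genes), and 7 had an unadjusted p under 0.05, all lower, against 2.03% of all genes. This difference uses the same mannitol arrays and shares their limit of slide row. The smallest p was that of Atp5mk (-0.28, SE 0.10, adjusted p = 1).

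The confidence intervals concern the difference between group means, for each gene by itself. They are not adjusted for the number of genes, so counts of intervals are not joint bounds. For the 72 subunits other than Uqcrq the 95% confidence interval reached a median of 0.18 log2 units to either side in a comparison of 2 groups and 0.11 in the averaged one. In the glucose comparisons 70 of 72 intervals lay within 0.5 of 0 in each diet. In the diet comparisons 69 did without perfusion, 66 with mannitol and 71 with glucose. The widest intervals were those of Cox6b2, reaching -0.96 between glucose and mannitol after sucrose. A p that misses the threshold does not show that levels were equal, and the intervals cover the spread between arrays, not a shift by slide row. All chow mannitol arrays lay in row 1 and all chow glucose arrays in row 2, so row and buffer glucose cannot be told apart in chow hearts.

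**Figure D5:**
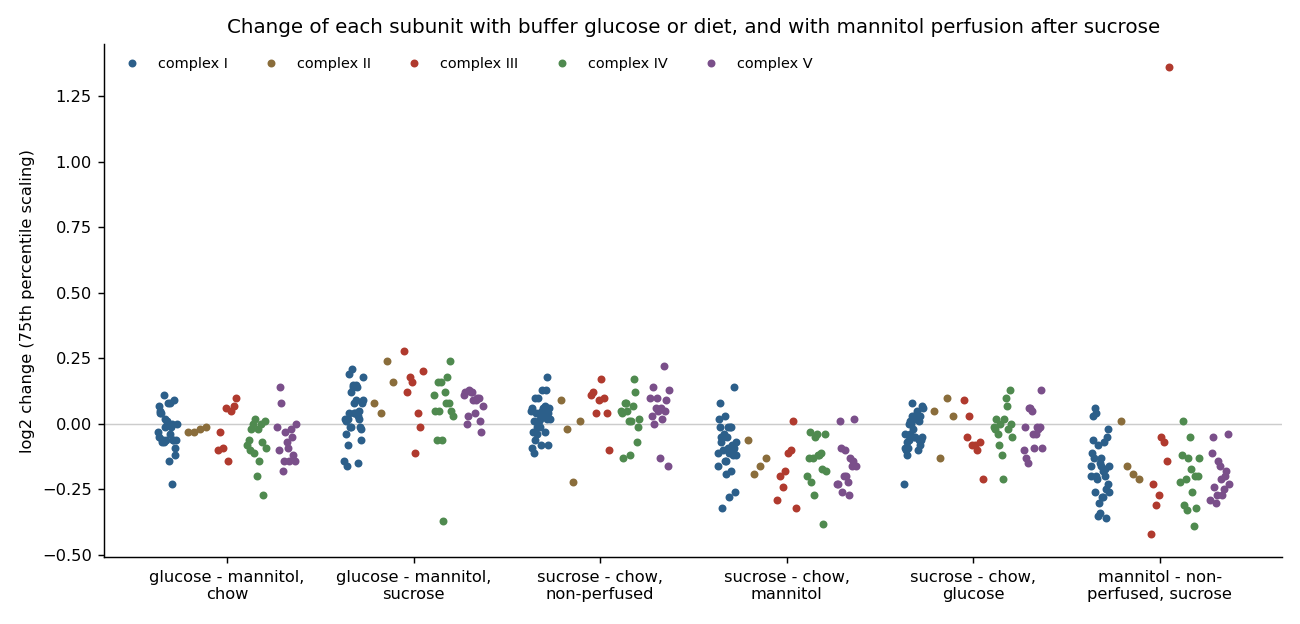
Log2 change of each of 73 subunits, coloured by complex, for glucose minus mannitol in each diet, for sucrose minus chow in each state, and for mannitol minus non-perfused in sucrose-fed hearts; each point is 1 subunit with 75th percentile scaling. The glucose and diet changes lie between -0.38 and 0.28, and Uqcrq stands apart at 1.36 only in the perfusion comparison at the right.

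Genes that build or regulate the chain were taken from lists of named genes. Coq10b, which binds coenzyme Q and supports its function, rose by 1.66 in the averaged comparison (SE 0.09, 3.15-fold, adjusted p = 5.79e-14). It was the 1 of 13 tested genes of cytochrome c and coenzyme Q synthesis that rose, where 10.1% of all genes rose. It rose by 1.59 and 1.47 with mannitol and by 1.85 and 1.71 with glucose in chow and sucrose-fed hearts. Coq9 fell by 0.15 and did not pass with quantile scaling, and Cycs (cytochrome c) was at -0.08 and did not pass.

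Over all genes 10.1% rose and 12.2% fell in the averaged comparison, and 9.84% rose and 11.1% fell with quantile scaling. Of 13 tested complex I assembly factors 0 rose and 6 fell, and 5 fell with quantile scaling. They included Lyrm2 (-0.24, SE 0.06, adjusted p = 0.00272), Tmem186 (-0.23, SE 0.05, adjusted p = 0.00149), Ndufaf3 (-0.18, SE 0.04, adjusted p = 0.00183) and Ecsit (-0.16, SE 0.05, adjusted p = 0.0232), and with quantile scaling the first 3 stood at -0.24, -0.20 and -0.15 and passed, while Ecsit did not. Of 8 for complexes II and III 0 rose and 3 fell, Sdhaf2 (-0.18), Sdhaf1 (-0.25) and Uqcc3 (-0.18), of which the last did not pass with quantile scaling.

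Of 18 complex IV factors 2 rose and 3 fell, where 10.1% of all genes rose and 12.2% fell (9.84% and 11.1% with quantile scaling). Higd1a, a hypoxia-inducible protein that binds complex IV, rose by 0.48 (SE 0.10, adjusted p = 0.000409) and Coa7, named after its values were seen, by 0.24 (SE 0.08, adjusted p = 0.0271). Coa4 fell by 0.47 (SE 0.07, adjusted p = 3.97e-06), Coa3 by 0.20 (SE 0.06) and the copper chaperone Cox17 by 0.15 (SE 0.04), and Cox17 did not pass with quantile scaling. Of 6 genes for complex V 0 rose and 3 fell, Atpaf2, Tmem242 and Fmc1, and 1 fell with quantile scaling. The inhibitor Atp5if1 was at -0.15 (SE 0.08) and did not pass, and Ndufab1, an acyl carrier subunit of complex I outside the naming rule, was at -0.01 and did not pass.

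Of 15 tested nuclear regulators of respiratory genes 3 rose and 2 fell. The coactivators Pprc1 and Ppargc1b rose by 0.46 (SE 0.07, adjusted p = 2.37e-05) and 0.31 (SE 0.07, adjusted p = 0.00121), and the factor Yy1 by 0.35 (SE 0.07, adjusted p = 0.000613). These 3 were at 0.46, 0.30 and 0.34 with quantile scaling. The nuclear receptor Esrrg, named after its values were seen, fell by 0.46 (SE 0.15, adjusted p = 0.0281, and 0.145 with quantile scaling), and Gabpa, the DNA-binding subunit of GABP, by 0.14 (SE 0.04, adjusted p = 0.0138). Ppargc1a was at -0.08, Nrf1 at 0.20 (SE 0.10), Esrra at -0.09 and Tfam, which maintains mitochondrial DNA, at -0.01, and none of them passed. Against 10.1% of all genes rising and 12.2% falling, these counts are descriptions of lists chosen with earlier results of these data known.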

How the data were processed

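The deposited scanner files hold, per the file headers, intensity values processed by Agilent Feature Extraction 11.0.1.1 (the submitters' processing notes name 10.3), background-subtracted within each array and not scaled between arrays. The authors' deposited series table holds log2 values whose scaling between arrays is not given in the sources used here. Its array medians were 7.23 to 7.24, and 119283 cells are empty.

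Spots of a probe were averaged without outlier spots, on the log2 scale, and the 75th percentile of the array was subtracted. Probes were named through their accession and RefSeq: 18355 of 30367 probes matched a symbol. The brightest probe stood for a gene. A gene was tested if well above background on 4 of 5 arrays of a group. Of 73 subunits 14 had several probes, and 39 have a pseudogene or copy symbol in RefSeq, whose transcripts the probes might not separate. The model, fitted with limma 3.58.1 in R 4.3.3, had 1 mean for each of 6 groups on all 30 arrays and gave 11 comparisons, each adjusted over 18332 genes. The script was tested on simulated data. The replicates are different hearts, and their number limits the precision.

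The members and lists were chosen with earlier results of these data known. Subunits are named where they passed in at least 3 perfusion comparisons, had one of the 4 smallest adjusted p-values of their complex, had the smallest p where none passed, belong to an isoform pair or carry a catalytic role. From each other list up to 4 genes are named, besides 8 given by name. Alternatives were 16 other settings and leaving out each of 30 arrays. Replicate numbers do not pair samples: the mean correlation of residuals was -0.038 for the same number, 0.01 for other numbers and 0.211 for the same slide. Upstream windows are from RefSeq's GRCr8 table, and 9 of the 73 subunits had none.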

Additional observations from a re-analysis of the deposited data

Results flagged for a closer look

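Among 138 sets of 5 arrays examined (the medians of the 5 complexes, the isoform pairs, Ndufa4, and up to 2 subunits of each complex with the largest averaged change among those that passed), 6 held an array standing apart from the other 4 by more than 0.71 of the range. By chance about 1 in 20 would. The other subunits were not examined in this way. The median deviation of complex IV was -0.09 in chow mannitol replicate 3, against 0.05 to 0.08 in the other 4. Ndufb2 was at 6.66 in sucrose-fed non-perfused replicate 5, against 6.46 to 6.51. Sdhd was at 6.53 in sucrose-fed glucose replicate 1, against 6.36 to 6.39. Cox4i1 and Cox6a2 were at 8.48 and 9.54 in chow non-perfused replicate 2, against 8.09 to 8.18 and 8.87 to 9.06. Cox6a1 was at 7.6 in sucrose-fed mannitol replicate 5, against 6.85 to 6.99. Chow non-perfused replicate 2, sucrose-fed non-perfused replicate 5 and sucrose-fed mannitol replicate 5 are among the 4 arrays with the most spread negative controls, whose part in these values was not tested.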

How the results depend on the processing

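Uqcrq passed in all 5 perfusion comparisons under all 47 settings, between 1.25 and 1.85 in single groups and 1.49 and 1.63 in the averaged comparison. The small falls held under some settings and were lost under others. With quantile scaling, with normexp and quantile scaling and with the authors' deposited values, 1 subunit passed in each single perfusion comparison (main counts 2 in chow mannitol, 2 in chow glucose, 22 in sucrose mannitol, 3 in sucrose glucose), and 2, 1 and 1 in the averaged one (main count 17). Without a filter, where more genes were fitted and adjusted for, the counts were 1, 1 and 13 for chow mannitol, chow glucose and sucrose mannitol. With slide as a fixed block they were 4 for chow mannitol and 4 for chow glucose, and as a random block 4 for chow glucose. Fitting only the groups compared gave 1, 1, 3 and 1. Without the 4 arrays of spread controls they were 1, 1, 9 and 1, and 8 averaged, without the lone array 13 in sucrose mannitol, and without these 5 arrays 1 in chow mannitol, 1 in chow glucose, 5 in sucrose mannitol and 9 averaged. Quantile scaling with slide as a block gave 2 in sucrose mannitol, 1 in sucrose glucose and 7 averaged (5 higher, 2 lower). The settings that leave out those 5 arrays or join quantile scaling to the slide were chosen after seeing the data. Except for quantile scaling above, these counts have no share over all genes beside them. The cause of the differences between settings was not tested.

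The replicate numbers do not pair the samples, and a fit with the replicate number as a block gave 1 in chow mannitol and 13 in sucrose mannitol, with the other counts within 1.5 times. Leaving out 1 array at a time gave 1 to 3 in chow mannitol, 1 to 3 in chow glucose, 9 to 22 in sucrose mannitol, 1 to 3 in sucrose glucose and 13 to 21 averaged. Counts for glucose, diet and their interaction were 0 under all settings.

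Changes of sign in sucrose mannitol were Cox4i1 0.09, Atp5mc1 0.05 and Atp5pb 0.08 with quantile scaling, and 0.05 (Cox4i1) and 0.01 (Atp5pb) with slide added. With normexp they were Ndufv1 0.05, Cox4i1 0.06, Atp5f1e 0.02, Atp5mc1 0.02 and Atp5pb 0.08. With the authors' deposited values they were Ndufv1 0.06, Cox4i1 0.06, Atp5f1e 0.03, Atp5mc1 0.03 and Atp5pb 0.08, and Cox6b1 was 0.01 in the averaged comparison. In sucrose mannitol the share of falls among all called genes was 43.4% with quantile scaling and 11.1% with the authors' deposited values.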

Other observations

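Enzymes of the citric acid cycle, which feeds NADH and succinate into the chain, did not pass in the averaged comparison: 0 of 14 rose and 0 fell, with a median of -0.03 and changes from -0.13 (Cs, citrate synthase) to 0.07 (Mdh2, which passed with quantile scaling at 0.14), both named as the ends of the range after the values were seen. Of 10 genes of energy transfer and uncoupling 0 rose and 3 fell, where 10.1% of all genes rose and 12.2% fell: Ucp2 (-0.51, SE 0.15, adjusted p = 0.0111), the phosphate carrier Slc25a3 (-0.20, SE 0.06, adjusted p = 0.0157) and the outer membrane channel Vdac3 (-0.14, SE 0.04, adjusted p = 0.00537). With quantile scaling Ucp2 was at -0.51 and passed, and the other 2 did not pass.

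Probes of 1 gene differed in the averaged comparison for several subunits with more than 1. Ndufb4 was at -0.23 (SE 0.05) by the probe used and 0.00 (SE 0.05) by the other, and Atp5mc2 at -0.04 (SE 0.04) and -0.21 (SE 0.06). Ndufs5 was at -0.23 (SE 0.09) and -0.10 (SE 0.07), and Ndufs4 at -0.14 (SE 0.07) and 0.02 (SE 0.07). Whether the probes of a gene differ beyond their errors was not tested. Within slides, 39 of 73 subunits were lower after sucrose and mannitol on all 4 slides with all groups (53.4%, against 20.7% of all genes), while with quantile scaling the median of the 73 was -0.10, 0.03, 0.00 and 0.04 on those slides. The subunits named here for their several probes were chosen after their values were seen.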
